A study of Homo sapiens with 6 samples.

Results

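Protein-coding genes of the long arm of chromosome 16 (16q), the arm that carries the knockout target itself, were compared between 3 wild-type (WT) and 3 GPR56 knockout (KO) libraries of HT1080, an established human fibrosarcoma cell line. Members were the protein-coding genes of chromosome 16 that start beyond position 40000000, less 55 genes left out by name: adhesion receptors, chemokines, cadherins, metallothioneins and other families, and single genes such as HERPUD1 and NQO1. This left 326 of the 58735 genes in the deposited table, with starts between positions 46580554 and 90056566 (GRCh38), and the rule itself uses no expression value. WT cells carried the unedited line's genotype. KO cells came from the same line after CRISPR-Cas9 editing of GPR56, whose approved symbol is ADGRG1. Sample descriptions of both genotypes carry the solvent name DMSO, without a dose or time. The labels give neither the guide, the number of clones nor whether the 3 libraries of a genotype were separate cultures, so p-values measure only the spread between these libraries, which may be technical. The question was how mRNA levels of genes that share the target's chromosome arm differed between KO and WT.

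Chromosome 16 is divided by its centromere into a short arm (16p) and a long arm, and the part of the long arm next to the centromere is gene-poor heterochromatin. The genes farther out share a position rather than a pathway. They include the zinc finger protein CTCF, which organises chromatin loops, the deubiquitinase CYLD, and parts of the RNA exosome, the retromer, the shelterin complex of telomeres and the ESCRT machinery. In cancer genetics the arm is known for carrying tumour suppressor genes, CYLD and CTCF among them.

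Promoter sequences are taken from the RefSeq promoter table (GRCh38.p14) and shown for SHCBP1 and TERF2IP, which fell strongly in KO, and CMTM3, which was higher. They were chosen so that the letters of a fallen and of a higher member can be set side by side. Each runs 5′ to 3′ from 250 bases before to 50 bases after the RefSeq start, which can differ from the GENCODE 29 start. The SHCBP1 window lies almost wholly inside the span that GENCODE 29 gives that gene. Capitals mark matches to 4 motifs, searched on both strands. The GC box was searched as GGGCGG. The letters CCAAT stood for the CCAAT box. For the TATA box the search used TATAAA. An E box had to read CACGTG. Adjoining matches can overlap. The windows are chr16:46621330-46621629, minus strand, chr16:75647523-75647822, plus strand, and chr16:66604481-66604780, plus strand.
SHCBP1: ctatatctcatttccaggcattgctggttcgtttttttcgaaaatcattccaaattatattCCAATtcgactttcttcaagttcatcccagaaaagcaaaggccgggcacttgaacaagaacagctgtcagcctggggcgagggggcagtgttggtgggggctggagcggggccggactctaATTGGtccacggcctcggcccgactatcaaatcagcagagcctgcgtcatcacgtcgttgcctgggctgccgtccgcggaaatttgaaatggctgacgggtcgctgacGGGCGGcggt
TERF2IP: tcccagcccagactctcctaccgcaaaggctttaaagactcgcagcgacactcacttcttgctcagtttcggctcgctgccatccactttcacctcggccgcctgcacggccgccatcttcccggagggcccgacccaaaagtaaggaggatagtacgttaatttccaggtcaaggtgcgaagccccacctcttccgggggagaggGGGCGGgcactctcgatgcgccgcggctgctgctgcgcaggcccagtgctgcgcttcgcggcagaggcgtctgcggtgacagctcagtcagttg
CMTM3: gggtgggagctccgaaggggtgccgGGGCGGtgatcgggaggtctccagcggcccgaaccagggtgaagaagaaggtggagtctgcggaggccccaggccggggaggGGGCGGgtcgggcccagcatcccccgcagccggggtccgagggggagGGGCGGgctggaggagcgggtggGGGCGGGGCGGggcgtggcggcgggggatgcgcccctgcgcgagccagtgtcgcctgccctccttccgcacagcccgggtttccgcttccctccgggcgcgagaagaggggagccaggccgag
The SHCBP1 window held 1 GC box and 2 CCAAT matches at 54.7% GC, and the TERF2IP window 1 GC box at 63.00% GC. The CMTM3 window held 5 GC boxes at 77.00% GC. Of the members with a tested level, 145 had a window in the table. A GC box was present in 80.7% of these, against 44.6% of all 27305 windows. CCAAT was present in 31.03% against 35.7%, the TATA box in 3.45% against 11.95% and the E box in 8.97% against 7.43%. Among members called lower, 78.6% held a GC box and 35.7% a CCAAT match, and among the remaining tested members 83.6% and 24.6%. These are letter matches and not shown to be bound. The set of all windows was not limited to protein-coding or expressed genes. Its median GC content was 58.3%, against 68.7% for the windows of tested members. No set of other expressed protein-coding genes was searched, so the differences cannot be read as particular to this arm.

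Values are FPKM (fragments per kilobase per unit of library size), which divides reads by a gene's length and by a size value for the library. Reads recovered from them totalled 16410352 to 16461752 per WT library and 16955111 to 17276269 per KO library. The size values were not these totals. They ran from 16632684 to 16919552 in WT and from 16603136 to 17200157 in KO. They lay above the totals in every WT library and KO 1, and below them in KO 2 and KO 3. ADGRG1 itself, which is not among the members (chromosome 16, positions 57610652 to 57665580), had a mean of 6.51 ± 0.41 FPKM in WT and 2.60 ± 0.072 FPKM in KO (SD, n = 3 each) and was lower in every KO library. Of 8 mesenchymal markers, 5.0 reached 1 FPKM in WT and 6.0 in KO, THY1 and COL1A1 staying below that in both. None of 6 epithelial and 5 blood cell markers did, and of 4 endothelial markers only PECAM1 did, in KO (the 4 summed to 0.416 to 0.427 FPKM in WT and 1.39 to 1.59 FPKM in KO). The part of these shifts in the members' results was not tested.

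Most expressed members were lower in KO cells. Over all members together, reads made up 1.21%, 1.19% and 1.22% of the reads of the WT libraries and 0.909%, 0.913% and 0.902% of those of the KO libraries. The shares did not overlap, and the mean KO share was 0.752 of the mean WT share (1.21 ± 0.01% against 0.908 ± 0.006%, SD, n = 3 each). In bulk RNA, fewer cells with a transcript and less of it per cell cannot be told apart. The libraries measure RNA, and DNA was not analysed here.

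For single genes, log2(FPKM + 1) was compared by limma over the 12000 genes of the table with a mean of at least 1 FPKM, with Benjamini-Hochberg adjustment over all of them and a threshold of 0.05. Of the 326 members 184 were tested, 40 had no read in any library and 102 had reads but lay under the filter. Among the 184, 104 were lower in KO, 8 higher and 72 did not pass. Over all tested genes 22.4% were lower and 21.0% higher, 43.4% in all, so that the members' share of lower calls, 56.5%, stood above that background and their share of higher calls, 4.35%, below it. In 122 tested members all 3 KO libraries lay under all 3 WT libraries, and in 13 all lay above. Over all tested genes the same held for 28.3% and 26.4%. Leaving out WT 1 gave 76 lower and 5 higher members, while calls over all 12000 genes fell to 1936 lower and 1853 higher. A filter at a mean of 5 FPKM gave 65 lower and 3 higher of 101 tested members. Over all 7053 genes left by that filter, 1564 were lower and 1639 higher. Without the 4 tested members whose mean crossed 1 FPKM between genotypes, 102 of 180 were lower and 7 higher. Just inside the filter was SPATA33 (mean 1.07 FPKM), and just outside it were C16orf87 (0.983 FPKM) and TMED6 (0.977 FPKM).

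The shift was moderate in size and broad. The median KO minus WT difference of the tested members was −0.28 on the log2(FPKM + 1) scale, with quartiles of −0.46 and −0.08, against −0.01 over all 12000 genes. Without the pseudocount, the KO to WT ratio of mean FPKM had a median of 0.784 and quartiles of 0.685 and 0.931, against a median of 0.994 over all tested genes. A ratio from 0.5 to 0.75 was found for 64 members and one from 0.75 to 1 for 81, while 8 lay under 0.5, 27 between 1 and 1.5 and 4 at 1.5 or above. Ratios under 0.5 made up 4.35% of the members and 3.60% of all tested genes, and ratios from 0.5 to 0.75 made up 34.8% and 14.9%. Of the 112 called members, 80 changed by less than 1.5-fold on the scale with a pseudocount. The libraries of a genotype stayed close together: the median member deviated from the WT mean by 0.00, −0.03 and 0.03 in the WT libraries and by −0.28, −0.28 and −0.27 in the KO libraries.

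**Figure D1:**
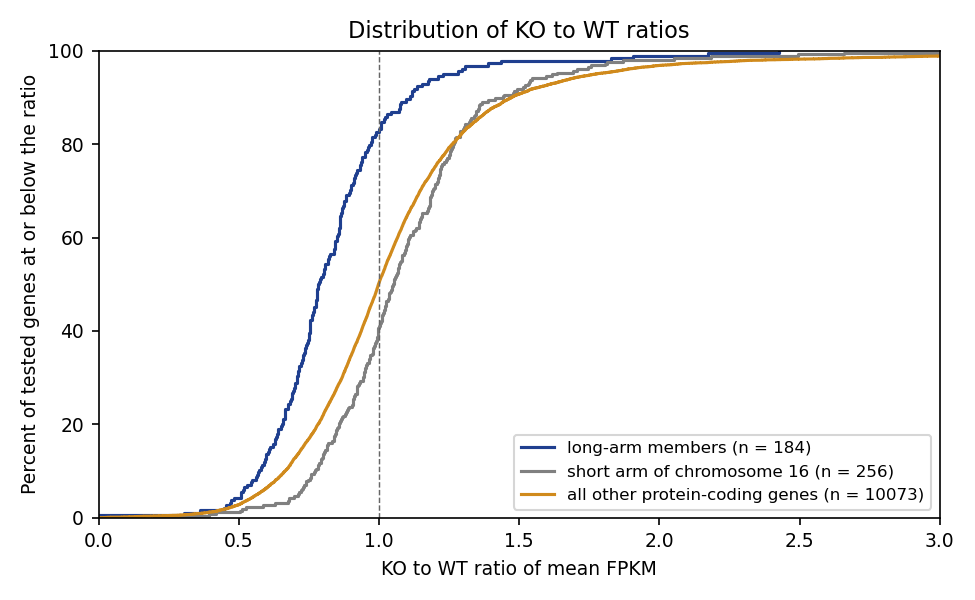
Cumulative percent of tested genes (y axis) by the KO to WT ratio of mean FPKM without pseudocount (x axis, shown up to 3) for long-arm members, short-arm genes and all other protein-coding genes. The members' curve lies to the left, with a median of 0.784 against 1.05 on the short arm.

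Genes of the short arm of the same chromosome centred near 0. Of the 256 tested protein-coding genes there 37 were lower and 62 higher in KO (14.5% lower), with a median of 0.06 and a median ratio of 1.05. Once each library's trend with GC content and gene length was removed (called GC correction here), 69 of these genes were lower and 33 higher, with a median of −0.05, so the balance of calls turned. The 34 tested genes of the long arm that had been left out by name gave 19 lower and 1 higher, with a median of −0.34. The edited gene ADGRG1 is itself among the 19 lower (log2 fold change −1.06, limma adjusted p = 6.24e-05). Among the other 22 chromosomes (1 to 22 without 16, and X), the median over tested protein-coding genes ran from −0.16 on chromosome 4 to 0.25 on chromosome 13, and none lay under that of the members. After GC correction these medians ran from −0.07 on chromosome 18 to 0.41 on chromosome 13, and the members' median was −0.32. No test set the members as a group against other genes.

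**Figure D2:**
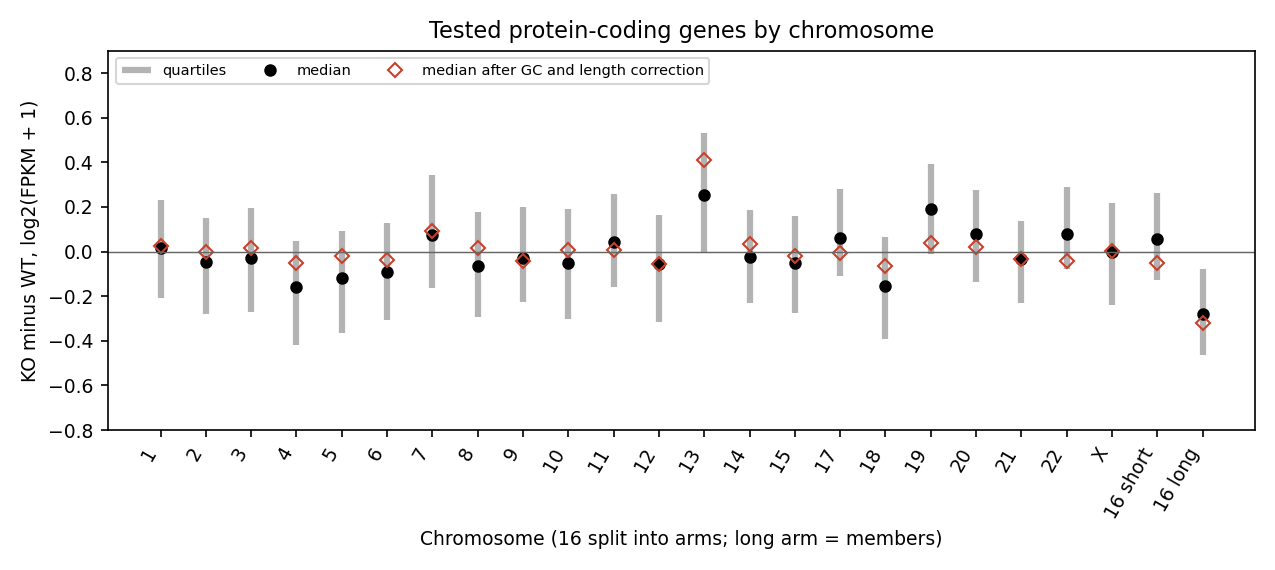
Median (black points) and quartiles (grey bars) of the KO minus WT difference in log2(FPKM + 1) over tested protein-coding genes, per chromosome on the x axis, with chromosome 16 split into its arms. Open diamonds give the median after GC correction, which is −0.32 for the long-arm members and −0.05 for the short arm.

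Lower levels were found along the whole arm, from SHCBP1, the first member after the centromere, to the stretch that ends next to the telomere. On the centromere side of ADGRG1, 24 of 38 tested members were lower and 2 higher (median −0.31), and on the telomere side 80 of 146 were lower and 6 higher (median −0.27). The order of the sides turned after GC correction, with medians of −0.28 and −0.33. When the 184 tested members were divided in order of position into 8 stretches of 23, each stretch had a negative median. The medians were −0.43, −0.28, −0.18, −0.16, −0.45, −0.29, −0.36 and −0.17 from centromere to telomere. Stretches 1 (SHCBP1 to IRX3), 5 (PDF to GLG1) and 7 (HSBP1 to MVD) were lowest, with 17, 18 and 17 of 23 called lower. Stretches 3 (GOT2 to CTCF), 4 (CARMIL2 to COG8) and 8 (RNF166 to GAS8) were nearest to 0, with 10, 9 and 7 called lower. After GC correction stretches 3, 4 and 8 had 13, 17 and 15 called lower and medians of −0.29, −0.28 and −0.27, and stretch 6 was nearest to 0. Across the 184 members the Spearman correlation of the ratio with position was 0.08, the members sharing the same 6 libraries. By strand, the medians were −0.27 for 94 genes on the plus strand and −0.31 for 90 on the minus strand. Of the 38 members on the centromere side 35 had a negative difference, as had, of the 146 on the telomere side 117.

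**Figure D3:**
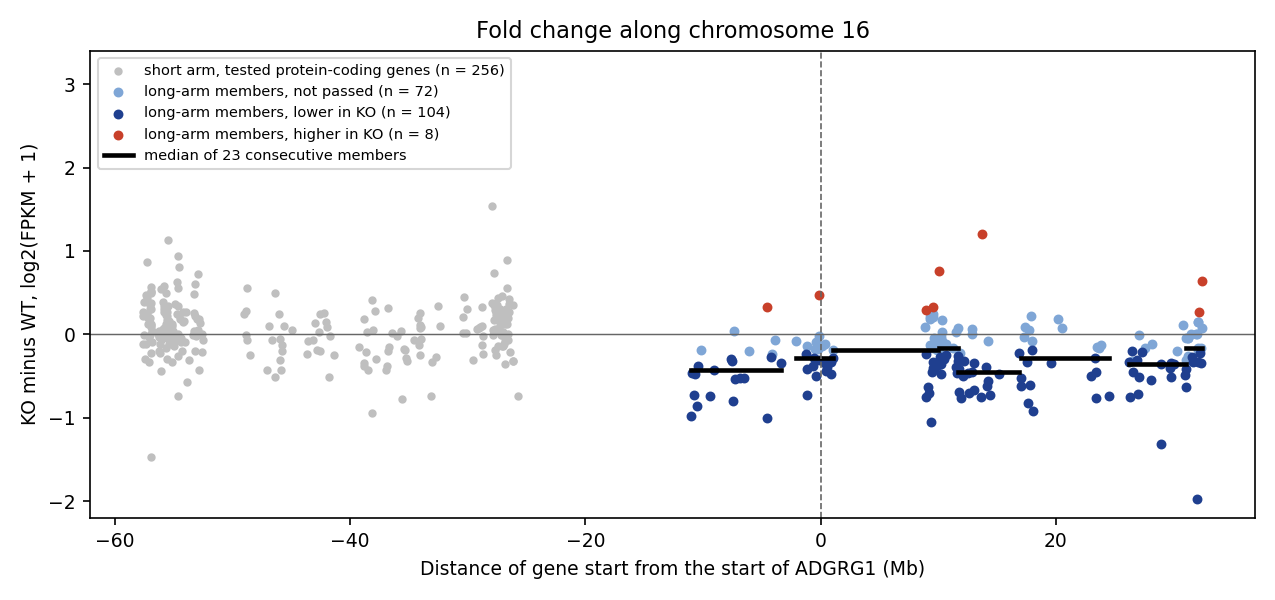
KO minus WT difference in log2(FPKM + 1) (y axis) of tested protein-coding genes by the distance of their start from the start of ADGRG1 in Mb (x axis, dashed line at 0). Grey points are short-arm genes, coloured points are long-arm members by call, and black bars are medians of 23 consecutive members, all of them under 0.

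The members' differences ran with base composition. GC content of the members' transcripts had a median of 44.6% in stretch 1 and 59.9% in stretch 8. Tested members were split by GC content into 3 groups. With the lowest GC content, 44 of 62 were lower and 0 higher (median −0.41), with middle GC content 36 of 61 were lower and 2 higher (−0.26), and with the highest 24 of 61 were lower and 6 higher (−0.13). Other protein-coding genes within the same GC limits had medians of −0.14, 0.10 and 0.19 over 5170, 2617 and 2279 genes, so that the members lay below them in each group. The Spearman correlation of the ratio with GC content was 0.38 across the 184 members and 0.50 across the other protein-coding genes, which are not independent replicates. After each library's trend with GC content and gene length was removed, the medians of the 3 groups were −0.30, −0.36 and −0.32, and those of the 8 stretches lay between −0.49 (stretch 5) and −0.22 (stretch 6). Before correction, deviations from the mean correlated with GC content over 11992 genes at Spearman coefficients of −0.40, −0.63 and −0.02 in the WT libraries and 0.47, 0.45 and 0.23 in the KO libraries. Its part in the members' results was not tested beyond this correction. With the correction 128 of the 184 members were lower and 5 higher, and 100 of the 104 members called lower before were among the 128. Over all 11992 genes the corrected fit called 2650 lower and 2573 higher.

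**Figure D4:**
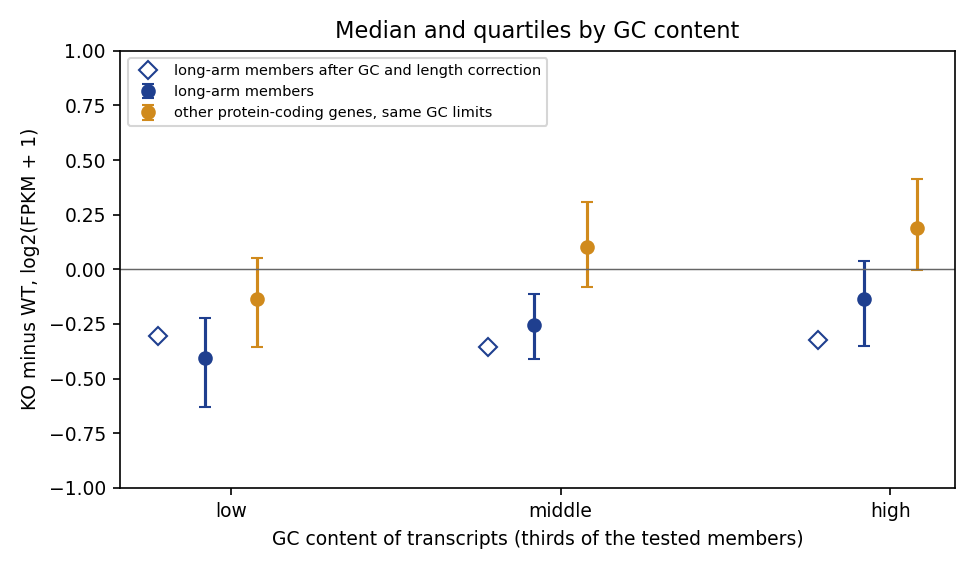
Median and quartiles (points and bars) of the KO minus WT difference in log2(FPKM + 1) in 3 equal groups by GC content of the tested members (x axis), for long-arm members and for other protein-coding genes within the same GC limits. Open diamonds show the members after GC correction; the members lie below the other genes in every group.

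The members were next read by what their proteins do. Group counts can be set beside 22.4% lower and 21.0% higher over all tested genes. Over all tested members the shares were 56.5% and 4.35%. Among transcription factors and chromatin proteins most tested members were lower. Of 32 members in this group 23 were tested, 19 were lower, 0 higher and 4 did not pass, with a median of −0.37. CBFB, the subunit that stabilises RUNX factors on DNA (ENSG00000067955, plus strand, positions 67029116 to 67101058), stood at 33.6, 34.1 and 31.8 FPKM in WT against 15.5, 15.02 and 16.03 FPKM in KO. All 3 KO libraries lay under all 3 WT libraries, and the mean fell from 33.2 ± 1.3 to 15.5 ± 0.50 FPKM (log2 fold change −1.05, SE 0.06, limma adjusted p = 3.46e-05). FOXC2, a forkhead factor of mesenchymal and lymphatic development (ENSG00000176692, plus strand, positions 86566829 to 86569728), stood at 5.38, 6.26 and 6.24 FPKM in WT against 1.79, 1.56 and 2.08 FPKM in KO, without overlap. Its KO to WT ratio of 0.304 (log2 fold change −1.31, SE 0.09, limma adjusted p = 0.000107) was the lowest of the tested members with reads in both genotypes. NFAT5, the factor that answers osmotic stress, fell from 5.50 ± 0.39 to 2.83 ± 0.045 FPKM (adjusted p = 0.000252). CTCF, named above, fell from 10.5 ± 0.43 to 7.89 ± 0.44 FPKM (adjusted p = 0.00366). E2F4, a repressor of cell cycle genes in resting cells and among the members with the highest levels, fell from 58.6 ± 4.3 to 44.1 ± 1.2 FPKM (adjusted p = 0.00354). MAF, a basic leucine zipper factor, lay under the filter, with 27 reads in WT against 67 in KO, each over 3 libraries.

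Genes of RNA processing and ribosome assembly were all tested, 19 of 19, and 16 were lower, 0 higher and 3 did not pass (median −0.46). EXOSC6, a core subunit of the RNA exosome, stood at 18.1, 17.5 and 18.3 FPKM in WT against 10.1, 10.99 and 10.8 FPKM in KO. The genotypes did not overlap, and the ratio was 0.591 (log2 fold change −0.71, SE 0.06, limma adjusted p = 0.000181). TENT4B, a noncanonical poly(A) polymerase that marks RNA for trimming, fell from 4.10 ± 0.21 to 1.93 ± 0.062 FPKM (adjusted p = 0.000211). NIP7, a factor of ribosome subunit assembly, fell from 28.4 ± 1.7 to 17.2 ± 1.2 FPKM (adjusted p = 0.000497). Part of the NIP7 exons overlaps COG8 on the opposite strand, and without a stated strand setting such reads cannot be assigned with certainty. POLR2C, a subunit of RNA polymerase II close to ADGRG1, fell from 31.4 ± 0.37 to 25.1 ± 1.1 FPKM (adjusted p = 0.00458).

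Of 12 members with roles at telomeres, centromeres and microtubules 11 were tested, and 7 were lower, 0 higher and 4 did not pass (median −0.45). TERF2IP, the shelterin subunit RAP1, whose promoter is printed above, stood at 23.2, 23.3 and 22.5 FPKM in WT against 11.6, 12.7 and 10.8 FPKM in KO (ENSG00000166848, plus strand, positions 75647786 to 75761872). Every KO value lay under every WT value, at a ratio of 0.508 (log2 fold change −0.92, SE 0.07, limma adjusted p = 0.000128). SHCBP1, a protein of cytokinesis and the first member after the centromere (ENSG00000171241, minus strand, positions 46580554 to 46621626), stood at 21.1, 21.9 and 19.7 FPKM in WT against 9.57, 10.2 and 10.6 FPKM in KO, again without overlap (log2 fold change −0.98, SE 0.07, limma adjusted p = 8.19e-05). CENPN, which recognises the centromeric nucleosome, fell from 10.1 ± 1.4 to 5.51 ± 0.53 FPKM (adjusted p = 0.00155). Its exons partly overlap CMC2 on the opposite strand. DYNC1LI2, a light intermediate chain of the motor dynein, fell from 11.4 ± 0.10 to 6.96 ± 0.40 FPKM (adjusted p = 0.000311).

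**Figure D5:**
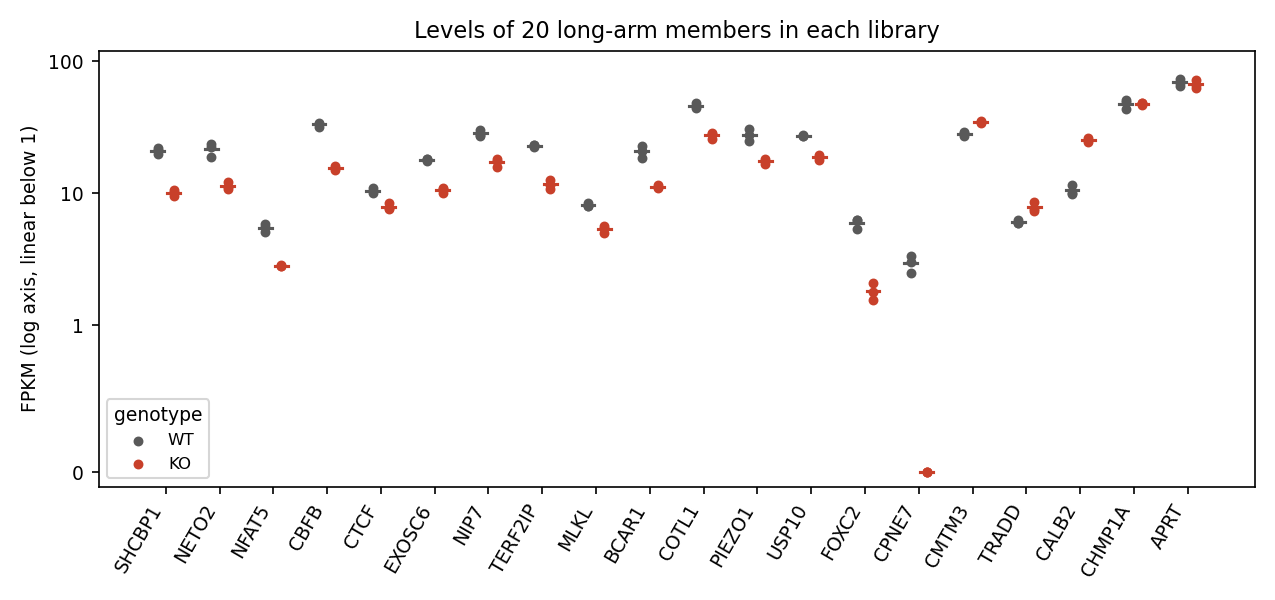
FPKM of 20 long-arm members (x axis, members that fell first, then 3 that were higher and 2 that did not pass) in each library. Points are libraries, short lines are means of 3, and the y axis is logarithmic above 1 and linear below. CALB2, CMTM3 and TRADD lie higher in KO, CPNE7 has no read in KO, and CHMP1A and APRT overlap between genotypes.

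In the group of ubiquitin, proteolysis and autophagy genes 18 of 19 were tested, with 10 lower, 0 higher and 8 not passing (median −0.28). USP10, a deubiquitinase that acts on p53 and on stress granules, stood at 27.00, 27.03 and 27.5 FPKM in WT against 17.9, 18.7 and 19.4 FPKM in KO. The genotypes did not overlap (log2 fold change −0.52, SE 0.06, limma adjusted p = 0.000515). RFWD3, a ubiquitin ligase of DNA repair, fell from 22.3 ± 0.98 to 14.2 ± 1.1 FPKM (adjusted p = 0.00073), and LONP2, a peroxisomal protease, from 5.00 ± 0.17 to 2.59 ± 0.19 FPKM (adjusted p = 0.000293). LONP2 exons partly overlap SIAH1 on the opposite strand. CYLD fell from 3.11 ± 0.33 to 1.85 ± 0.098 FPKM (adjusted p = 0.00291).

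Of 17 vesicle traffic members 15 were tested, and 6 were lower, 0 higher and 9 did not pass (median −0.22). VAC14, the scaffold of the kinase that makes the endosomal lipid PI(3,5)P2, fell from 16.2 ± 0.67 to 9.87 ± 0.12 FPKM (adjusted p = 0.000202), and AP1G1, a subunit of the clathrin adaptor AP-1, from 11.5 ± 0.96 to 7.14 ± 0.21 FPKM (adjusted p = 0.000698). MON1B, part of the activator of the late endosomal GTPase RAB7, fell from 12.02 ± 0.43 to 9.30 ± 0.63 FPKM (adjusted p = 0.00625). VPS35, the core of the retromer that returns receptors from endosomes, stood at 18.5, 20.8 and 16.8 FPKM in WT against 12.03, 13.4 and 14.3 FPKM in KO, without overlap (log2 fold change −0.46, SE 0.10, limma adjusted p = 0.00743). CHMP1A, an ESCRT subunit and one of the 5 members with the highest mean, was at 48.8, 43.6 and 50.8 FPKM in WT against 48.3, 48.2 and 46.4 FPKM in KO. Its genotypes overlapped (log2 fold change 0.00, SE 0.07, limma adjusted p = 0.996). After GC correction its difference was −0.23 (adjusted p = 0.00398 by limma).

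For mitochondrial and amino acid metabolism 13 of 16 were tested, with 4 lower, 0 higher and 9 not passing (median −0.18). The share called lower, 30.8%, was nearer to the 22.4% of all tested genes than to the 56.5% of all tested members. After GC correction 5 of the 13 were lower and 0 higher (median −0.23). GPT2, the mitochondrial alanine aminotransferase, stood at 9.97, 9.20 and 10.8 FPKM in WT against 5.58, 5.86 and 5.39 FPKM in KO, without overlap (log2 fold change −0.73, SE 0.07, limma adjusted p = 0.000354). PDPR, a regulator of pyruvate dehydrogenase phosphatase, fell from 10.4 ± 0.21 to 7.29 ± 0.36 FPKM (adjusted p = 0.00104). GOT2, the mitochondrial aspartate aminotransferase and one of the 5 highest members, was at 65.5, 74.9 and 66.6 FPKM in WT against 53.1, 60.98 and 68.4 FPKM in KO. One KO library lay inside the WT range, and the difference did not pass (log2 fold change −0.18, SE 0.10, limma adjusted p = 0.188). COQ9, a lipid-binding protein of coenzyme Q synthesis, was at 10.1 ± 0.32 FPKM in WT against 9.06 ± 0.74 FPKM in KO (adjusted p = 0.152; −0.25 with adjusted p = 0.0282 by limma after GC correction). PDF, the mitochondrial peptide deformylase, fell from 14.9 ± 1.9 to 11.7 ± 0.47 FPKM (adjusted p = 0.0284). The PDF call was lost without WT 1 or any 1 KO library (adjusted p of 0.0512 to 0.0853) and with no filter (adjusted p = 0.0752), and 48.3% of its exonic bases overlap COG8.

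For lipid, sterol and purine metabolism 7 of 15 members were tested, with 2 lower, 0 higher and 5 not passing (median −0.08, and −0.27 after GC correction). The share called lower before correction, 28.6%, was near the 22.4% of all tested genes. After GC correction 5 of the 7 were lower and 1 higher. MBTPS1, the site-1 protease that cuts SREBP and ATF6 in the Golgi, fell from 18.7 ± 0.090 to 16.1 ± 0.52 FPKM (adjusted p = 0.0193), a call that was lost without WT 1, KO 2 or KO 3 (adjusted p of 0.0640 to 0.0870). MVD, mevalonate diphosphate decarboxylase of cholesterol synthesis, fell from 16.7 ± 2.1 to 12.3 ± 1.7 FPKM (adjusted p = 0.0298). That call did not survive leaving out WT 1, WT 3 or KO 3 in turn (adjusted p of 0.0737 to 0.0839) and with no filter (adjusted p = 0.0896). LPCAT2, which acylates lysophosphatidylcholine, was at 4.41, 4.80 and 3.95 FPKM in WT against 4.07, 3.63 and 4.66 FPKM in KO, and the genotypes overlapped (log2 fold change −0.08, SE 0.10, limma adjusted p = 0.569). With GC correction its difference was positive (0.35, limma adjusted p = 0.00314). APRT, which salvages adenine and had the highest mean of the members, was at 69.2 ± 4.1 FPKM in WT against 67.2 ± 5.0 FPKM in KO, and the genotypes overlapped (adjusted p = 0.687; −0.27 with adjusted p = 0.00579 by limma after that correction).

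Of 21 cytoskeleton and adhesion members 14 were tested, and 7 were lower, 3 higher and 4 did not pass (median −0.24). After GC correction 11 were lower and 1 higher (median −0.39). COTL1, which binds filamentous actin, stood at 44.2, 45.5 and 48.2 FPKM in WT against 25.96, 28.2 and 28.4 FPKM in KO, and BCAR1, the focal adhesion scaffold p130Cas, at 20.97, 18.5 and 22.7 FPKM in WT against 11.6, 11.1 and 11.02 FPKM in KO. Neither gene's genotypes overlapped (COTL1: log2 fold change −0.72, SE 0.06, limma adjusted p = 0.000236; BCAR1: log2 fold change −0.82, SE 0.08, limma adjusted p = 0.000338). CPNE7, a calcium-dependent membrane-binding copine near the telomere (ENSG00000178773, plus strand, positions 89575768 to 89597246), had 155, 127 and 170 reads in the WT libraries (3.01, 2.50 and 3.35 FPKM) and 0 reads in every KO library. Counted against a floor of 3 reads over the 3 KO libraries it was at least 153-fold lower (limma adjusted p = 3.41e-05). The 3 higher members of this group were DOK4, PARD6A and SPIRE2. DOK4, an adaptor of receptor tyrosine kinases whose start lies 0.139 Mb from that of ADGRG1, stood at 0.753, 0.853 and 1.02 FPKM in WT against 1.96, 1.42 and 1.41 FPKM in KO (adjusted p = 0.0164). Its call was lost without WT 1 (adjusted p = 0.0592), with no filter (adjusted p = 0.0584) and after GC correction (adjusted p = 0.0566). PARD6A, a cell polarity protein, was at 1.31 ± 0.44 FPKM in WT against 2.85 ± 0.056 FPKM in KO (adjusted p = 0.00543), and SPIRE2, an actin nucleator, at 1.15 ± 0.049 FPKM in WT against 1.60 ± 0.15 FPKM in KO (adjusted p = 0.0406; adjusted p = 0.449 by limma after that correction). Both were singled out after their values were seen.

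Among immune and cell death genes 8 of 17 were tested, with 5 lower, 2 higher and 1 not passing (median −0.30). MLKL, the pore-forming effector of necroptosis, stood at 8.42, 8.04 and 7.94 FPKM in WT against 4.98, 5.41 and 5.68 FPKM in KO, without overlap (log2 fold change −0.52, SE 0.07, limma adjusted p = 0.000919). OSGIN1, an oxidative stress-inducible growth inhibitor, fell from 2.74 ± 0.052 to 1.22 ± 0.019 FPKM (adjusted p = 0.000313). CMTM1, a chemokine-like transmembrane protein, fell from 2.83 ± 0.26 to 1.28 ± 0.27 FPKM (adjusted p = 0.00194); the annotated readthrough gene CKLF-CMTM1 shares 40.3% of its exonic bases. Its neighbour CMTM3, whose promoter is printed above, was higher in KO, at 26.9, 28.4 and 29.2 FPKM in WT against 34.4, 35.2 and 34.2 FPKM in KO, as was TRADD, the adaptor of the TNF receptor, at 5.94, 5.94 and 6.32 FPKM in WT against 7.33, 7.66 and 8.61 FPKM in KO. Neither overlapped between genotypes (CMTM3: log2 fold change 0.29, SE 0.06, limma adjusted p = 0.00619; TRADD: log2 fold change 0.32, SE 0.07, limma adjusted p = 0.00997). After GC correction both differences were no longer called (CMTM3: 0.09, limma adjusted p = 0.165; TRADD: 0.09, limma adjusted p = 0.419). CYBA, a subunit of the NADPH oxidases, had 0 reads in WT against 5 in KO and lay under the filter. Few transporters and channels were expressed, 3 of 15 being tested, with 2 lower and 0 higher. PIEZO1, the mechanically gated cation channel, stood at 27.5, 24.8 and 30.8 FPKM in WT against 18.2, 17.4 and 16.6 FPKM in KO, without overlap (log2 fold change −0.63, SE 0.09, limma adjusted p = 0.00134). SLC38A7, a lysosomal glutamine exporter, fell from 4.07 ± 0.42 to 3.18 ± 0.28 FPKM (adjusted p = 0.0382), a call lost without WT 1, WT 3, KO 1 or KO 2 (adjusted p of 0.0924 to 0.123), under quantile normalization (adjusted p = 0.0578) and with no filter (adjusted p = 0.0969).

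CALB2 had the largest increase. It encodes calretinin, a calcium-binding protein of neurons and mesothelium (ENSG00000172137, plus strand, positions 71358713 to 71390438), and stood at 9.86, 10.1 and 11.5 FPKM in WT against 25.4, 26.4 and 24.6 FPKM in KO. Every KO value was more than 2-fold above every WT value, and the mean rose from 10.5 ± 0.89 to 25.5 ± 0.89 FPKM (log2 fold change 1.20, SE 0.07, limma adjusted p = 5.06e-05). After GC correction its difference was 1.08 (adjusted p = 1.77e-05 by limma). The remaining higher members, singled out after their values were seen, were DBNDD1 (1.55 ± 0.39 FPKM in WT against 2.96 ± 0.12 FPKM in KO, adjusted p = 0.00422) and AC007906.2 (1.38 ± 0.13 FPKM in WT against 1.98 ± 0.10 FPKM in KO, adjusted p = 0.0180). NETO2, an auxiliary subunit of kainate receptors, was among the 8 largest decreases and stood in none of the groups above. Its values were 22.3, 23.4 and 18.7 FPKM in WT against 10.8, 11.1 and 12.2 FPKM in KO, without overlap (log2 fold change −0.85, SE 0.09, limma adjusted p = 0.000546).

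Of the 12 tested members nearest to ADGRG1, 1 of 6 was lower and 1 higher on the centromere side, and 4 of 6 were lower on the telomere side. The difference between the sides was not tested. On the centromere side POLR2C fell and DOK4 rose, as given above, while ARL2BP, CIAPIN1, COQ9 and CCDC102A did not pass. CIAPIN1, an iron-sulfur cluster assembly factor, was at 23.3, 23.8 and 21.9 FPKM in WT against 18.95, 20.9 and 20.96 FPKM in KO. Its genotypes did not overlap, but the difference missed the threshold (log2 fold change −0.17, SE 0.07, limma adjusted p = 0.0689) and passed it after GC correction (−0.25, adjusted p = 0.0101), without WT 3 (adjusted p = 0.0470) and by limma-voom on recovered reads (adjusted p = 0.0332). CCDC102A, whose start lies 0.0985 Mb from that of ADGRG1, was at 4.26 ± 0.44 FPKM in WT against 4.20 ± 0.63 FPKM in KO (adjusted p = 0.908), and ARL2BP, which binds the GTPase ARL2, at 1.42 ± 0.39 FPKM in WT against 1.33 ± 0.73 FPKM in KO (adjusted p = 0.784). On the telomere side CSNK2A2, a catalytic subunit of casein kinase 2, stood at 16.9, 17.1 and 16.7 FPKM in WT against 12.3, 12.5 and 12.99 FPKM in KO, without overlap (log2 fold change −0.40, SE 0.05, limma adjusted p = 0.00126). CFAP20, a ciliary and flagellar protein, fell from 16.6 ± 2.1 to 11.9 ± 0.40 FPKM (adjusted p = 0.00751), and SETD6, a lysine methyltransferase whose exons overlap those of CNOT1, from 4.98 ± 0.20 to 3.32 ± 0.26 FPKM (adjusted p = 0.00205). ZNF319, a zinc finger protein, fell from 4.44 ± 0.54 to 3.30 ± 0.44 FPKM (adjusted p = 0.0366), a call lost without WT 1, WT 3, KO 2 or KO 3 (adjusted p of 0.0933 to 0.118), under quantile normalization (adjusted p = 0.0516) and with no filter (adjusted p = 0.102). USB1, which trims the U6 RNA, was at 7.37 ± 0.48 FPKM in WT against 6.72 ± 0.075 FPKM in KO and did not pass (adjusted p = 0.188), but passed after GC correction (−0.22, adjusted p = 0.00810).

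By level of expression, among the 62 tested members with the lowest mean FPKM (median 2.30 FPKM) 28 were lower and 5 higher. Among the 61 with the highest (median 17.4 FPKM) 41 were lower and 2 higher. The median ratio was 0.823 in the lowest, 0.775 in the middle and 0.779 in the highest group. CIAO2B, a cytosolic iron-sulfur assembly protein among the 5 highest, was at 63.6, 57.2 and 69.5 FPKM in WT against 74.6, 69.8 and 71.5 FPKM in KO. Its KO libraries lay above its WT libraries, but the difference did not pass (log2 fold change 0.18, SE 0.08, limma adjusted p = 0.105); it passed without WT 3 (adjusted p = 0.0300) and was 0.00 after GC correction (adjusted p = 0.963 by limma).

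The 142 members under the filter together had 5920 reads in WT against 5266 in KO, each summed over 3 libraries. Among those with at least 60 reads in the higher genotype, the widest ratios ran both ways. ZNF469, linked to collagen fibre formation, had 699 reads in WT against 171 in KO, and ATP2C2, a Golgi calcium pump, had 109 reads in WT against 18 in KO. PLEKHG4, a guanine nucleotide exchange factor, had 70 reads in WT against 22 in KO. In the other direction CES3, a carboxylesterase, had 40 reads in WT against 180 in KO, EXOC3L1, related to a subunit of the exocyst, had 18 reads in WT against 90 in KO, and LDHD, a mitochondrial D-lactate dehydrogenase, had 15 reads in WT against 81 in KO. In each of the 6 the values of the genotypes did not overlap. The 6 were picked for the width of this ratio, so neither that nor their p-values below add separate support. A fit with no filter tested the 102 members under it that had reads and called 6 lower and 8 higher. Over all 31298 genes with reads the same fit called 2471 lower and 2503 higher (15.9% in all). That background includes the genes above the filter, and no share was taken for other genes under it. Whether these low members held an excess of lower calls was therefore not tested. In that limma fit ATP2C2 (adjusted p = 0.00834) and ZNF469 (adjusted p = 0.0108) were called lower, and CES3 (adjusted p = 0.0174), EXOC3L1 (adjusted p = 0.0225) and LDHD (adjusted p = 0.0415) higher. PLEKHG4 did not pass (adjusted p = 0.101).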

How the data were processed

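RNA came from a Qiagen RNeasy extraction and was made into libraries by a SMARTER mRNA-Seq kit, per the labels' protocols. The authors deposited 1 table of FPKM values for 3 WT and 3 KO libraries. GRCm38 and mm10, both mouse builds, stand in the submitters' processing notes, whereas all 58735 genes carry the human positions of GENCODE 29 (GRCh38). For aligner, counter and strand, the setting is not given in the sources used here. Whole read numbers were recovered from the FPKM values and gene lengths for all values within a tolerance of 0.02. Genes with a mean of at least 1 FPKM were tested on log2(FPKM + 1) with limma 3.58.1 in R 4.3.3, after a check on simulated data, with Benjamini-Hochberg adjustment over all tested genes and a threshold of 0.05. Unless another tool is named, adjusted p-values are limma's. KO was compared with WT without a replicate block. Fold changes with the pseudocount understate changes of low genes. Exonic overlap was taken from the annotation, from 10% of a member's exonic bases.

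Named genes were the 8 largest increases and 8 largest decreases among called members without overlap and with at least 5 FPKM in the higher genotype, up to 3 called members of each functional group by adjusted p, the 6 tested members nearest to ADGRG1 on each side, 12 genes named whatever their values, the 5 highest members, and up to 6 wide ratios of at least 60 reads under the filter. Some members that the rule names are not reported here. Members and lists were chosen with earlier results of these data known. Alternatives covered the pseudocount, filter, scaling, limma-voom on recovered reads, a replicate block, each library left out, and a correction for GC content and length. Its use on medians of stretches, chromosomes, lists and GC groups was added after the data were seen.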

Additional observations from a re-analysis of the deposited data

How the results depend on the processing

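No alternative turned a called member to the opposite call, and every median over the members was negative under each setting run. With a pseudocount of 0.1 the median log2 fold change was −0.35 over all tested members, −0.38 on the centromere side of ADGRG1 and −0.34 on the telomere side. With no filter it was −0.14, −0.23 and −0.11, and 13 members were higher. With a filter at a mean of 5 FPKM, which leaves 101 members, it was −0.33, −0.37 and −0.33, with 65 lower and 3 higher. By limma-voom on recovered reads it was −0.38, −0.42 and −0.37. The GC and length correction gave −0.32, −0.28 and −0.33, with 128 lower and 5 higher. The cause of these shifts was not tested, apart from the smaller set left by the stricter filter.

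Leaving out 1 library at a time gave 76 to 102 lower and 5 to 11 higher calls, medians of −0.29 to −0.25 over all members, −0.34 to −0.30 on the centromere side and −0.28 to −0.24 on the telomere side, and median ratios of 0.782 to 0.802. Both the lowest lower count and the lowest higher count came without WT 1. Over all 12000 genes the same fits called 1936 to 2715 lower and 1853 to 2657 higher.

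Deviations of same-numbered WT and KO libraries correlated at −0.07, −0.18 and −0.35, and no library correlated best with its own number. The deviations are centred within each genotype over 3 libraries, so they cannot settle whether same-numbered libraries were prepared together. With the replicate block 77 members were lower and 5 higher, against 1966 lower and 1900 higher over all 12000 genes. Among named members the calls of DOK4 (limma adjusted p = 0.0537), SLC38A7 (0.0510), PDF (0.0605), MBTPS1 (0.0805) and MVD (0.0822) were lost.

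CHMP1A, at 0.00, turned to −0.0542 under quantile normalization, −0.0321 by limma-voom and −0.226 after GC and length correction. CCDC102A turned to 0.0249 under quantile normalization and LPCAT2 to 0.351 after GC and length correction. With 1 library left out, the log2 fold change crossed 0 for CHMP1A (−0.0614 to 0.0459), CCDC102A (−0.0988 to 0.0768), ARL2BP (−0.324 to 0.106) and APRT (−0.10 to 0.0045). Of 54 tested named members 36 kept their call and direction in every setting that tested them; the filter at 5 FPKM did not test 15 of the 54, and 27 of the 36 were tested in every setting. Depth limits the 142 members under the filter, of which 102 were tested only in the fit with no filter.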

Other observations

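Beyond the protein-coding genes, 732 genes of other types start on the same arm, and 22 of them were tested. Of these 7 were lower in KO, 1 was higher and 14 did not pass, with a median log2 fold change of −0.18 (limma, threshold and background as in the report). Among the lower ones were CRNDE, a long noncoding RNA raised in several cancers, which fell from 2.16 ± 0.076 to 1.40 ± 0.22 FPKM (adjusted p = 0.0127), and AFG3L1P, a transcribed pseudogene of a mitochondrial protease subunit, which fell from 2.41 ± 0.30 to 1.44 ± 0.19 FPKM (adjusted p = 0.00838). The higher one was AC092368.3, a long noncoding RNA, at 1.63 ± 0.30 FPKM in WT against 2.84 ± 0.44 FPKM in KO (adjusted p = 0.00963). These 3 were chosen after their values were seen.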
